A study of Homo sapiens with 45 samples.

Results

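The 10 genes described here encode regulators that hold cells in, or move them out of, an epithelial state: the repressors of epithelial genes ZEB1, ZEB2, SNAI1, SNAI2, TWIST1 and TWIST2, and the guardians of the epithelial state OVOL1, OVOL2, GRHL2 and ESRP1. They were chosen by symbol, each of the 10 matched 1 Ensembl identifier among the 64485 genes of the count table, and they were read in all 45 libraries. RNA was profiled in 15 human breast cancer cell lines with 3 libraries each, from total RNA without ribosomal RNA. The lines are given as wild-type in the sources used here, and no treatment is named. MDA-MB-468 and MDA-MB-157, MDA-MB-453 as well as MDA-MB-231 and MDA-MB-436 grew in L-15 medium, BT-20 in EMEM, Hs578T in DMEM, and the 7 HCC lines (HCC70, HCC38, HCC1937, HCC1806, HCC1395, HCC1187 and HCC1143) and BT-549 in RPMI medium. Every medium held 10% fetal bovine serum and antibiotics. MDA-MB-436 also received 10 µg/mL insulin and 16 µg/mL glutathione, and BT-20 and BT-549 received 2 µg/mL insulin. The labels give every line the cell type epithelial and name no epithelial or mesenchymal class, and the series was deposited with work on MYC and glutamine use. Nothing in the labels says that replicates were grown apart, and a p-value here measures only the spread between these libraries, which may be technical.

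Epithelial cells are joined in sheets by E-cadherin and tight junctions, and mesenchymal cells move singly. ZEB1 and ZEB2 (zinc finger and homeobox proteins), SNAI1 and SNAI2 (Snail and Slug, zinc finger proteins) and TWIST1 and TWIST2 (basic helix-loop-helix proteins) are known to silence E-cadherin and other junction genes, the ZEB and SNAI proteins by binding the E-box motif in their promoters. GRHL2 is an activator of junction genes that also represses ZEB1, OVOL1 and OVOL2 are zinc finger repressors that hold down ZEB1 and other mesenchymal genes, and ESRP1 directs the splicing of transcripts into their epithelial forms. MicroRNAs of the miR-200 family bind the transcripts of ZEB1 and ZEB2, and the ZEB proteins repress the genes of these microRNAs. In breast cancer these factors are known for marking lines of epithelial and of mesenchymal character.

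The libraries held 2312138 to 14653677 counts (median 6263573). Hs578T replicate 2 lay at the end of the range in depth, genes detected and mitochondrial share. It had the fewest counts, and the next library, MDA-MB-157 replicate 2, held 4308892. Its genes detected were the most at 40272, with 39596 in MDA-MB-436 replicate 3 as the next and 27967 as the lowest. Its share of mitochondrial transcripts was the highest at 0.782%, with 0.664% in BT-549 replicate 2 as the next and 0.0502% as the lowest. The calls of Hs578T are given below with and without its replicate 2. Runs 1 and 2 held the libraries of Hs578T, MDA-MB-231, HCC38 and HCC1143, and runs 3, 4 and 5 those of the remaining 11 lines. The 5 epithelial markers EPCAM, CDH1, KRT8, KRT18 and KRT19 summed to 2529 to 9093 CPM (counts per 10 to the power 6, scaled by TMM) in 9 lines and to 1287 CPM in MDA-MB-231, 320.2 CPM in MDA-MB-157, 164 CPM in MDA-MB-436, 264 CPM in HCC1395, 135 CPM in Hs578T and 7.36 CPM in BT-549. In these last 6 lines CDH1 was between 0.42 and 1.53 CPM, so the defining adhesion gene of the labelled cell type was near 0 there, although no marker was at 0 counts. The 4 fibroblast markers DCN, LUM, PDGFRB and PDGFRA summed to 583 CPM in Hs578T and 448 CPM in MDA-MB-157, where all 4 were called higher, and to 2.65 to 40.3 CPM in the other 13 lines. The 4 blood markers summed to 1.04 to 34.8 CPM and the 4 endothelial markers to 1.59 to 122 CPM. The 122 CPM was BT-20, where CDH5 alone was 117 CPM, and the next line was HCC1937 at 22.4 CPM. The part of the blood and endothelial markers in the results below was not tested. In bulk RNA, fewer cells of a type and less RNA per cell cannot be told apart.

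All 10 genes passed the filter on low counts, SNAI1 only through MDA-MB-157, and all 10 differed among the 15 lines (edgeR quasi-likelihood F test, adjusted p between 7.32e-38 for ESRP1 and 3.28e-10 for SNAI1). So did 98.3% of the 20587 genes tested. Over the line means, ESRP1 spanned 8.31 and GRHL2 8.62 log2 units, against a median of 2.76 over all genes tested. SNAI1 spanned the least of the 10, at 4.39 log2 units.

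GRHL2 and ESRP1 divided the lines with no line in between. GRHL2, at chr8:101492432-101669726 on the plus strand (GRCh38, GENCODE 29, protein coding), averaged 298 ± 48.7 CPM (SD, n = 3) in HCC1187, the highest line, and 0.477 ± 0.251 CPM in HCC1395, the lowest. In order, the means were 241 CPM in MDA-MB-453, 229 in BT-20, 223 in HCC70 and in HCC1806, 205 in HCC1143, 186 in HCC1937, 114 in HCC38 and 112 in MDA-MB-468. They were then 3.30 CPM in Hs578T, 1.93 in MDA-MB-157, 1.76 in BT-549, 0.97 in MDA-MB-231 and 0.802 in MDA-MB-436. The 27 libraries of the upper 9 lines held 102 to 354 CPM and the 18 libraries of the lower 6 lines 0 to 6.95 CPM, with no overlap. The step between MDA-MB-468 and Hs578T was 5.31 ± 0.29 on the log2 scale (SE, edgeR adjusted p = 8.99e-21). Of the 14 neighbouring pairs in this order, the only other one to pass was HCC1937 over HCC38 (0.71 ± 0.20, edgeR adjusted p = 0.00305). The gap was 5.30 log2 units between the line means, larger than the largest gap of 99.6% of genes tested, whose median was 0.707.

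ESRP1, at chr8:94641074-94707466 on the plus strand, had the same 6 lines at its lower end. All 6 of these lines lay below the other 9 in 0.908% of all genes tested. Its mean was 393 ± 35.2 CPM (SD, n = 3) in HCC1937, 344 ± 18.1 CPM in HCC70, and 148 to 236 CPM in the other 7 upper lines. The 6 lower lines had 3.51 CPM (Hs578T), 2.59 CPM (BT-549), 1.94 CPM (MDA-MB-157), 1.40 CPM (HCC1395), 1.20 CPM (MDA-MB-231) and 0.960 CPM (MDA-MB-436). The step between HCC1143 and Hs578T was 5.65 ± 0.26 on the log2 scale (SE, edgeR adjusted p = 3.36e-23). HCC70 and HCC1187 also differed (0.54 ± 0.18, edgeR adjusted p = 0.0094), and the other 12 neighbouring pairs did not pass. HCC1937 and HCC70 were thus above the other upper lines in ESRP1. In GRHL2 HCC70 stood in the middle of the upper lines, and HCC1937 above only HCC38 and MDA-MB-468 of them.

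OVOL1 and OVOL2 kept the same division, as did 0.908% of all genes tested. OVOL1, at chr11:65787022-65797219 on the plus strand, was highest in HCC1806 at 37.2 ± 3.70 CPM (SD, n = 3). It was 26.5 CPM in HCC1937, 23.4 in HCC38, 21.7 in HCC70, 10.9 in MDA-MB-453, 10.1 in HCC1187, 8.31 in BT-20 and 5.29 in MDA-MB-468. HCC1143 had only 2.11 ± 0.582 CPM, with 2.19, 2.65 and 1.49 CPM in its 3 libraries, the lowest of the 9 lines that hold GRHL2. The other 6 lines had 0.08 to 0.34 CPM, and 7 of the 45 libraries held no OVOL1 read. OVOL2, at chr20:17956979-18059188 on the minus strand, ranged from 3.42 CPM (HCC1187) to 10.7 CPM (BT-20) in the upper 9 lines and reached at most 0.833 CPM (MDA-MB-157) in the lower 6. MDA-MB-231 had 0 counts of OVOL2 in 15534853 over its 3 libraries. With a floor of 3 counts over the line, its level was at least 28.5-fold lower than the median of the other lines. HCC1395 had 1 count, a ratio of 0.00725 to that median with an exact 95% Poisson interval of 0.000184 to 0.0404, which covers counting error only.

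Among the repressors, ZEB1, at chr10:31318495-31529814 on the plus strand, divided the lines at the same place. Its libraries held 180, 173 and 196 CPM in BT-549, 179, 77.0 and 174 CPM in Hs578T, and 117, 137 and 124 CPM in MDA-MB-231. HCC1395 had 82.1, 108 and 114 CPM, MDA-MB-436 had 75.7, 75.1 and 65.2 CPM, and MDA-MB-157 had 52.9, 58.4 and 60.4 CPM. These are the 6 lines with the lowest GRHL2, and all of them exceeded the other 9 lines, as for 0.457% of all genes tested. The next line was HCC1143 with 14.5, 14.2 and 10.1 CPM, and the step from MDA-MB-157 down to it was 2.15 ± 0.21 on the log2 scale (SE, edgeR adjusted p = 4.84e-12). Below HCC1143 the means were 6.26 CPM in HCC38, 5.28 in BT-20, 3.83 in MDA-MB-453, 3.09 in HCC1187, 2.78 in HCC1937, 2.14 in HCC70, 1.41 in MDA-MB-468 and 1.21 in HCC1806. HCC1143 exceeded HCC38 (1.05 ± 0.25, edgeR adjusted p = 0.00041), and no neighbouring pair below HCC38 passed. ZEB1 was at 0 in none of the 45 libraries, and it spanned 151-fold between line means.

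ZEB2, at chr2:144364364-144524583 on the minus strand, was highest in the same 6 lines but in another order. MDA-MB-436 led with a mean of 117 ± 10.5 CPM (SD, n = 3), all 3 libraries above those of Hs578T at 92.5, 69.5 and 84.2 CPM (0.51 ± 0.19 on the log2 scale, SE, edgeR adjusted p = 0.0223). MDA-MB-157 averaged 69.6 CPM, BT-549 47.6, HCC1395 35.2 and MDA-MB-231 22.2. MDA-MB-231, which followed BT-549 and Hs578T in ZEB1, was therefore the lowest of the 6 in ZEB2, and MDA-MB-436, next to lowest of the 6 in ZEB1, the highest. The highest of the other 9 lines was MDA-MB-453 at 6.27 ± 1.46 CPM (SD, n = 3), 1.84 ± 0.24 log2 units below MDA-MB-231 (SE, edgeR adjusted p = 5.64e-09). Within the 6 lines the Spearman rho of ZEB1 with ZEB2 was -0.26 and within the other 9 lines 0.53, given as a description of few points.

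**Figure D1:**
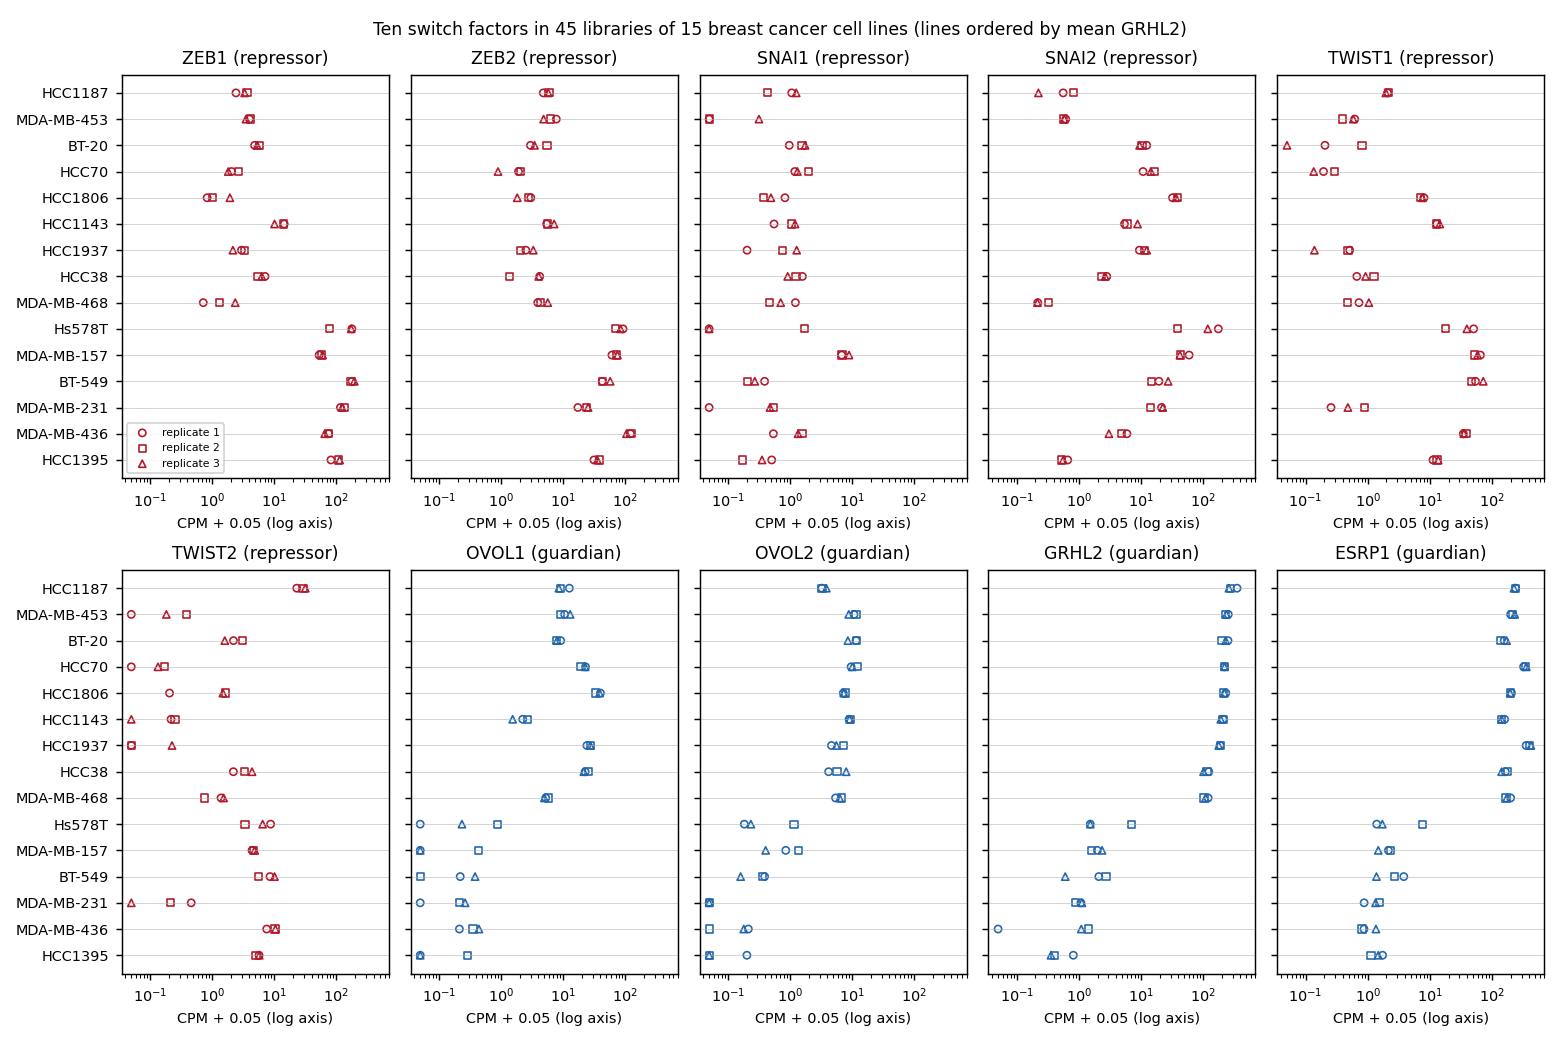
Each panel plots 1 gene in 45 libraries, with CPM + 0.05 on a log x axis and the 15 lines on the y axis, ordered by mean GRHL2 from the top. Symbols stand for the 3 replicates, red for repressors and blue for guardians. The 4 guardians and ZEB1 and ZEB2 change at the same line, Hs578T, while SNAI1, SNAI2, TWIST1 and TWIST2 do not.

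Antisense genes overlap some of these loci. ZEB1 shares 366 exonic bases with ZEB1-AS1 on the opposite strand and ZEB2 shares 1299 with ZEB2-AS1, and reads there cannot be told apart where counting ignores strand, which is not given in the sources used here. ZEB1-AS1 was 0.742 CPM (MDA-MB-468) to 9.57 CPM (HCC70) and was not ordered as ZEB1 was, since BT-549, highest in ZEB1, had 5.19 CPM, close to HCC1143 at 5.13 CPM and below HCC70. ZEB2-AS1 did not pass the filter and reached at most 1.68 CPM (Hs578T). OVOL1 shares 1044 exonic bases with an antisense gene that held 288 counts over all libraries, and OVOL2 shares 59 with SNX5 on its own strand.

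The seeds of the miR-200 family and of miR-205 and their matches in ZEB1 and ZEB2 are shown here. The mature microRNAs, from RefSeq (GRCh38.p14), fall into 2 seed groups and 1 other, and the seed (bases 2 to 8) is in capitals. They are shown because MIR200CHG, the host gene of miR-200c and miR-141, and MIR205HG, the host gene of miR-205, were measured here, while the mature microRNAs were not.
hsa-miR-200b-3p: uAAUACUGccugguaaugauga
hsa-miR-200c-3p: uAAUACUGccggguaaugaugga
hsa-miR-429: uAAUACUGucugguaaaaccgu
hsa-miR-200a-3p: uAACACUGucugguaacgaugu
hsa-miR-141-3p: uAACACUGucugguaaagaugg
hsa-miR-205-5p: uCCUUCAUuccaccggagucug

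The match to the first seed group is CAGTATT. It stands 6 times in the 2549 bases after the stop codon of ZEB1 and 5 times in the 5370 bases of ZEB2. Of 1169 genes with a stretch of similar length to that of ZEB1 (within 10%), 0.0855% hold at least as many. For ZEB2 this is 0.187% of 536 genes. Each set includes the gene itself, and here each share is that gene alone. The match to the second seed group, CAGTGTT, stands 3 times in ZEB1 (at least as many in 0.428% of the same genes) and 4 times in ZEB2 (1.49%). Over 19111 genes, 16.0% hold at least 1 CAGTATT and 18.3% at least 1 CAGTGTT on the transcript strand. SNAI1, TWIST1, TWIST2, OVOL1 and OVOL2 hold neither, and SNAI2, GRHL2 and ESRP1 hold at most 1 of each. The ATGAAGG match to the seed of miR-205 stands once in ZEB1, where 18.6% of genes of like length hold at least 1, and 11.6% of all genes hold it. The 7 sites of the first seed group that are followed by an A, the base known to favour such sites, are printed with the seed match in capitals, read on the strand of the gene (GRCh38).
ZEB1 chr10:31527621-31527645: gttttatcttatCAGTATTatcact
ZEB1 chr10:31528495-31528519: atttttacctatCAGTATTatttta
ZEB1 chr10:31528565-31528589: cttcaaacctggCAGTATTaatacc
ZEB2 chr2:144388984-144389008: actacaatgcatCAGTATTatgatt
ZEB2 chr2:144388626-144388650: aagcacccatgtCAGTATTagaaga
ZEB2 chr2:144388541-144388565: cattaattttgtCAGTATTacacca
ZEB2 chr2:144388410-144388434: tactgtagtgtaCAGTATTatagtt
A match is a description of these letters and shows no binding.

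MIR200CHG, on chromosome 12, was low everywhere but divided the lines as the guardians and 0.908% of all genes tested did. It averaged 5.90 ± 1.66 CPM (SD, n = 3) in HCC1187, 5.5 in BT-20, 4.78 in HCC1937, 4.35 in HCC38, 4.25 in HCC1143, 3.86 in HCC70, 2.88 in MDA-MB-453, 2.68 in HCC1806 and 2.36 in MDA-MB-468. The other 6 lines had 0 to 0.0894 CPM, that is 2 counts in BT-549, 0 in HCC1395 and 1 in each of the other 4. All 9 upper lines were called higher and all 6 lower lines lower than the mean log2 level of the other lines, for example HCC1187 by 2.79 ± 0.28 on the log2 scale (SE, edgeR adjusted p = 1.01e-11). The 300 bases around its start (chr12:6962995-6963294, plus strand, RefSeq, GRCh38.p14, 250 before and 50 after) hold 1 E-box, CAGGTG or its reverse complement CACCTG, in capitals, 78 bases before the start, shown since such motifs are the sites through which ZEB proteins are known to act.
MIR200CHG: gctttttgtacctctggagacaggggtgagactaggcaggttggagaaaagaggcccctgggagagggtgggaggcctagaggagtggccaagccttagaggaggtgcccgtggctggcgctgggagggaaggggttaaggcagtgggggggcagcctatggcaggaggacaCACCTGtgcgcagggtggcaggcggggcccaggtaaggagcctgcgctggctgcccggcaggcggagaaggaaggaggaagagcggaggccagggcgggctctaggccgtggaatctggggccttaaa
Of 35116 promoter windows of this length, 20.6% hold at least 1 such motif on either strand, and no binding was measured. The windows of MIR205HG, ZEB2 and TWIST2 hold 0 such motifs, and those of ZEB1 from 0 to 3. MIR205HG also had its 6 lowest levels in the same 6 lines (0.185 to 0.627 CPM), but MDA-MB-453 stood close to them with 0.876 ± 0.184 CPM and HCC1806 reached 493 ± 107 CPM.

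**Figure D2:**
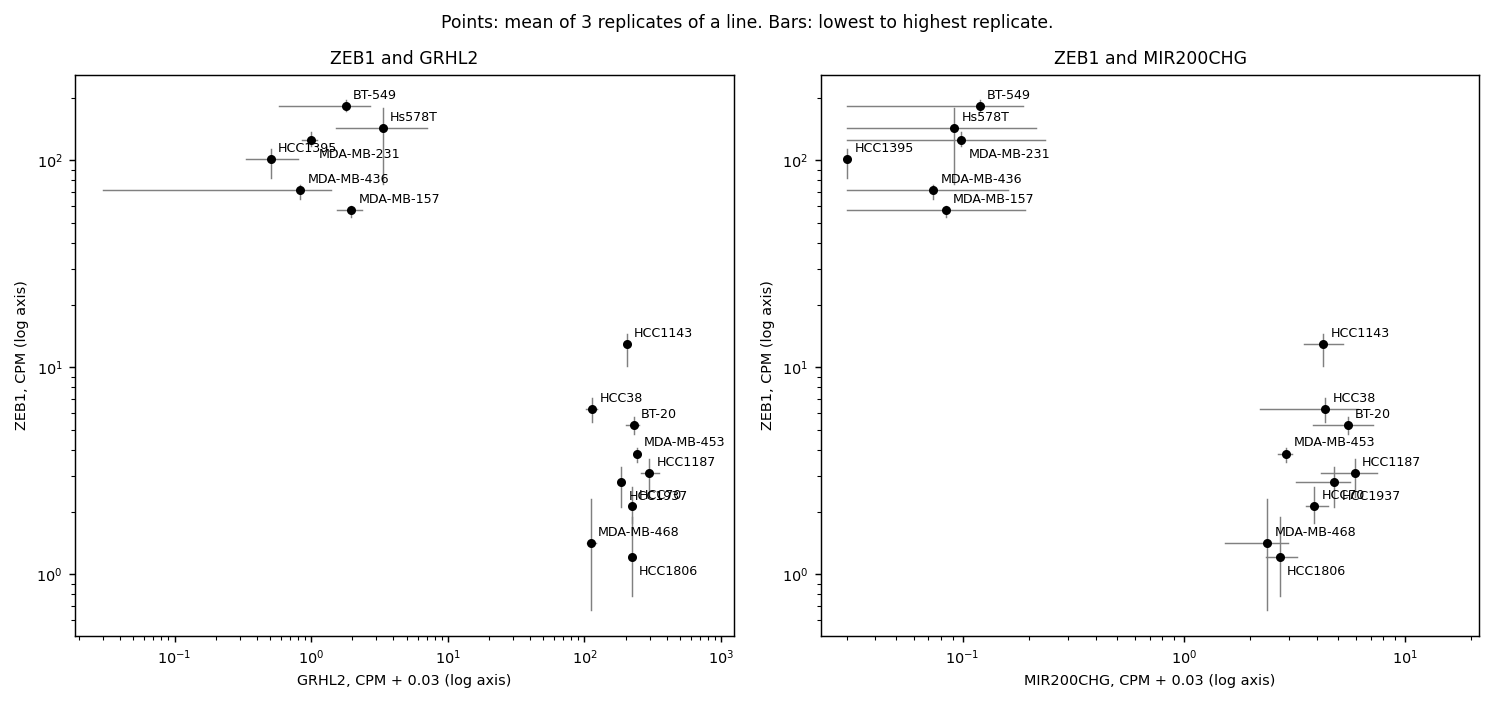
ZEB1 (y axis, CPM, log axis) is plotted against GRHL2 (left) and MIR200CHG (right), both as CPM + 0.03 on log x axes. Points are means of 3 replicates of a line and bars run from the lowest to the highest replicate. In both panels 6 lines with ZEB1 at 57.3 to 183 CPM sit apart from 9 lines with ZEB1 at 1.21 to 12.9 CPM.

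The TWIST genes did not keep this division. TWIST1, at chr7:19020991-19117672 on the minus strand, was highest in MDA-MB-157 with 65.2, 52.3 and 58.6 CPM and BT-549 with 54.4, 46.8 and 72.4 CPM. MDA-MB-436 and Hs578T both averaged 36.0 CPM. MDA-MB-231 had 0.206, 0.825 and 0.428 CPM, within the range of the lines with high GRHL2, with ZEB1 at 126 CPM. HCC1143 (13.3 ± 0.987 CPM, SD, n = 3) and HCC1395 (12.6 ± 1.24 CPM) did not differ beyond their spread, with GRHL2 at 205 CPM in HCC1143, and HCC1806 had 7.54 ± 0.452 CPM. Against the mean log2 level of the other lines, TWIST1 was 2.22 ± 0.19 log2 units higher in HCC1143 (SE, edgeR adjusted p = 9.78e-14). The arithmetic mean of those lines was 15.3 CPM, above that of HCC1143. In MDA-MB-231 the log2 fold change of TWIST1 was -2.77 ± 0.44 (edgeR adjusted p = 7.28e-07).

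TWIST2, at chr2:238848032-238910543 on the plus strand, was highest in a line with high guardians. HCC1187, first of all lines in GRHL2, held 23.1, 29.1 and 31.7 CPM of TWIST2, above MDA-MB-436 with 7.54, 10.3 and 10.4 CPM (1.56 ± 0.30 on the log2 scale, SE, edgeR adjusted p = 1.93e-05). BT-549 averaged 8.04 CPM, Hs578T 6.18, HCC1395 5.47, MDA-MB-157 4.58, HCC38 3.26, BT-20 2.25, MDA-MB-468 1.18 and HCC1806 1.07. The remaining 5 lines, MDA-MB-231, MDA-MB-453, HCC1143, HCC70 and HCC1937, had 0.0588 to 0.192 CPM, with 2 or 3 counts per line. For HCC70 the ratio to the median of the other lines was 0.0235 (exact 95% Poisson interval 0.00284 to 0.0848). In HCC1187, TWIST2 was 4.63 ± 0.20 log2 units above the mean of the other lines (edgeR adjusted p = 4.58e-25), and CDH2, the N-cadherin gene, was 3.62 ± 0.14 above it (edgeR adjusted p = 1.79e-27) at 134 ± 7.16 CPM (SD, n = 3).

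SNAI2, at chr8:48917604-48921740 on the minus strand, was spread over lines of both kinds. Hs578T held 177, 39.2 and 119 CPM, so its replicate 2 lay below all 3 libraries of MDA-MB-157, which held 59.7, 43.3 and 42.4 CPM. HCC1806 followed with 32.2, 38.3 and 36.8 CPM, above BT-549 at 20.5 CPM (0.79 ± 0.27 on the log2 scale, SE, edgeR adjusted p = 0.0111). MDA-MB-231 averaged 19.3 CPM, HCC70 13.9, HCC1937 11, BT-20 10.7, HCC1143 6.69, MDA-MB-436 4.58 and HCC38 2.56. A clear step of 2.21 ± 0.62 followed (edgeR adjusted p = 0.00215), and MDA-MB-453, HCC1395, HCC1187 and MDA-MB-468 lay between 0.204 and 0.536 CPM. HCC1395, with ZEB1 at 101 CPM, thus had 0.534 ± 0.0692 CPM of SNAI2 (SD, n = 3), -3.67 ± 0.44 on the log2 scale compared with the other lines (SE, edgeR adjusted p = 6.45e-10), close to MDA-MB-453 at 0.536 CPM.

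SNAI1, at chr20:49982999-49988886 on the plus strand, was scarce. MDA-MB-157 held 6.78, 6.87 and 8.91 CPM, 3.63 ± 0.32 log2 units above the mean of the other lines (SE, edgeR adjusted p = 6.66e-14) and 2.36 ± 0.51 above the next line, HCC70 (edgeR adjusted p = 7.8e-05). SNAI1 passed the filter on low counts only through MDA-MB-157, so these tests lend no support of their own to its high level there. All other lines averaged 0.0891 (MDA-MB-453) to 1.45 CPM (HCC70), 33 of 45 libraries had fewer than 10 counts, and 5 had 0. Only 35 pairs of lines differed for SNAI1, against 75 to 91 for each of the other 9 genes. The calls of SNAI1 in BT-549 (lower, edgeR adjusted p = 0.0465) and in HCC70 (higher, edgeR adjusted p = 0.0171) were lost under several alternatives.

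Each line was then set against the mean of the other 14 lines, with a call where the edgeR adjusted p was under 0.05 and the log2 fold change at least 1 in size. That mean was taken over log2 levels, so a line can be called higher with fewer CPM than the arithmetic mean of the others. GRHL2 in HCC38 was such a case, at 114 CPM against 123 CPM. Over 90 repressor comparisons 34 were higher, 34 lower and 22 not called, and over 60 guardian comparisons 34 were higher, 24 lower and 2 not called. Over all genes and lines 15.6% were higher and 14.4% lower. Against the other lines of the same set of runs, the counts were 35 higher and 36 lower for repressors and 35 higher and 24 lower for guardians. All 4 guardians were lower in each of the 6 lines with low GRHL2, and in the other 9 lines 3 or 4 were higher and none lower. GRHL2 itself set this division of the lines, so only ESRP1, OVOL1 and OVOL2 bear on it.

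The 6 lines with low guardians differed in which repressors were high. MDA-MB-157 had all 6 repressors higher and 4 guardians lower, where 19.6% of all genes were higher and 13.4% lower. Of these repressors, SNAI1 passed the filter on low counts only through this line. BT-549 had 5 repressors higher, SNAI1 lower and 4 guardians lower (all genes 12.4% higher, 13% lower). Hs578T had 5 higher, SNAI1 not called, and 4 guardians lower (19.8% and 11%). MDA-MB-436 had ZEB1, ZEB2, TWIST1 and TWIST2 higher and 4 guardians lower (15.7% and 12.2%). HCC1395 had the same 4 higher and SNAI2 and 4 guardians lower (14% and 20.8%). MDA-MB-231 had ZEB1, ZEB2 and SNAI2 higher, and TWIST1, TWIST2 and 4 guardians lower (15% and 11.4%). For MDA-MB-231 the calls of ZEB2 and SNAI2 rest on lines of other runs: within runs 1 and 2 their log2 fold changes were 0.95 and 0.62, below the limit of 1. OVOL2 in MDA-MB-157 was -1.19 without replicate 3 (edgeR adjusted p = 0.0539). ZEB1 and ZEB2 were the repressors higher in all 6, and no single TWIST or SNAI gene was.

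In the other 9 lines the repressors were not all low. MDA-MB-453 had 5 repressors lower, ZEB2 not called, and 4 guardians higher, with 16.6% of all genes higher and 16.8% lower. HCC1937 had ZEB1, ZEB2, TWIST1 and TWIST2 lower and 4 guardians higher (14% and 12.5%). MDA-MB-468 had ZEB1, ZEB2, SNAI2 and TWIST1 lower and 4 guardians higher (14% and 10.9%). BT-20 had ZEB1, ZEB2 and TWIST1 lower and 4 guardians higher (13.6% and 13.2%). HCC70 had SNAI1, SNAI2 and 4 guardians higher and the ZEB and TWIST genes lower (17.5% and 26%). HCC38 had TWIST2 and 4 guardians higher and ZEB1, ZEB2, SNAI2 and TWIST1 lower (13.3% and 11.6%). HCC1806 had SNAI2, TWIST1 and 4 guardians higher and ZEB1 and ZEB2 lower (15.1% and 15.7%). HCC1187 had TWIST2 and 3 guardians higher and ZEB1, ZEB2 and SNAI2 lower (15.3% and 14.4%), with OVOL2 not called. HCC1143 had TWIST1 and 3 guardians higher and TWIST2 lower (17.5% and 13.2%), with ZEB1, ZEB2 and OVOL1 not called. Some of these calls were lost under an alternative. Within their own set of runs ZEB1 in BT-20 was -0.91 and ZEB2 in HCC1187 -0.94 on the log2 scale, short of the limit of 1, and ZEB2 in HCC1187 was also -0.92 without replicate 1. Without replicate 2 OVOL1 in MDA-MB-468 was 0.68, and without replicate 3 TWIST2 in HCC38 was 0.78 (edgeR adjusted p = 0.127). In these fits HCC1395 and MDA-MB-157 had 0 counts of OVOL1 and HCC1937 0 of TWIST2, and they left the mean. OVOL1 in MDA-MB-468 itself was 5.21, 5.72 and 4.95 CPM in its libraries. HCC1143 was the only line in which neither ZEB gene was called, and with OVOL1 at 2.11 CPM and ZEB1 at 12.9 CPM it had the lowest OVOL1 and the highest ZEB1 among the 9.

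**Figure D3:**
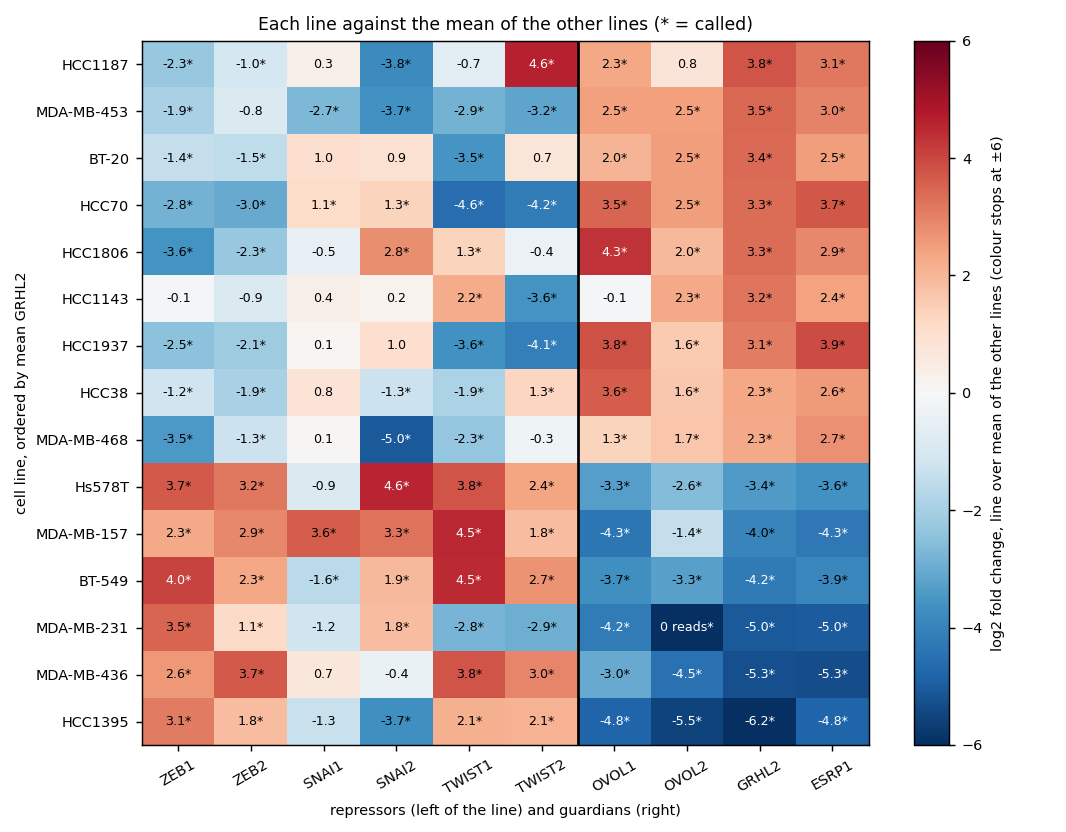
Rows are the 15 lines ordered by mean GRHL2, columns the 6 repressors and 4 guardians, and each cell gives the log2 fold change of the line over the mean of the other lines, red for higher and blue for lower. An asterisk marks a call, and "0 reads" marks OVOL2 in MDA-MB-231. Below MDA-MB-468 all 4 guardian columns are called lower, and above Hs578T they are called higher apart from OVOL1 in HCC1143 and OVOL2 in HCC1187. The reverse holds for ZEB1 and ZEB2 apart from the uncalled cells of HCC1143 and MDA-MB-453, while the TWIST and SNAI columns are mixed.

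Over all pairs of lines, 780 of 1050 comparisons of the 10 genes passed the adjusted p of 0.05, where 54.4% of all gene and pair comparisons did. ZEB1 differed in 91 pairs, SNAI2 in 88, ZEB2 in 85, TWIST1 in 84, OVOL1 in 83, TWIST2 in 82, OVOL2 in 79, ESRP1 in 78 and GRHL2 in 75. ESRP1 and GRHL2, the genes of the 10 with the largest gaps, thus differed in fewer pairs than ZEB1.

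Levels can be compared between genes only per length, and CPM per kilobase of annotated exons was used for this. In MDA-MB-231 ZEB1 stood at 14.6 CPM per kilobase and was the highest repressor, above SNAI2 at 5.69, and TWIST1 was 0.239. TWIST1 was the highest repressor per kilobase in MDA-MB-157 (28.9), BT-549 (28.4) and MDA-MB-436 (17.7), and SNAI2 in Hs578T (32.9). In HCC1395 it was ZEB1 at 11.7. Among lines with high guardians TWIST2 led in HCC1187 (14.9 CPM per kilobase) and SNAI2 in HCC1806 (10.5), HCC70 (4.11), HCC1937 (3.25) and BT-20 (3.16). GRHL2 was the highest guardian per kilobase in BT-20, HCC1143 and HCC1187, and ESRP1 in the other 12 lines. In HCC1187 GRHL2 reached 49.2 and ESRP1 48.5 CPM per kilobase. The annotated exons of ZEB2 span 25058 bases, against 8650 for ZEB1, so ZEB2 is low on this scale in every line (at most 4.67, in MDA-MB-436).

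Over the 9 upper lines the Spearman rho of ZEB1 was 0.10 with GRHL2, -0.57 with ESRP1, -0.43 with OVOL1 and 0.067 with OVOL2. Over the same 9 lines ZEB2 had -0.75 with SNAI2 and -0.68 with OVOL1, and SNAI2 had 0.60 with OVOL1. These are taken from 45 pairs of genes over 9 lines, which share library and depth, and are given as a description.

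Hs578T replicate 2 differed from the other libraries of its line in the 10 genes. GRHL2 was 6.95 CPM there (25 counts), against 1.48 CPM in both replicates 1 and 3 (11 and 8 counts), and ESRP1 7.51 CPM, against 1.34 and 1.67 CPM. ZEB1 was 77.0 CPM there, against 179 and 174 CPM, and SNAI2 39.2 CPM, against 177 and 119 CPM. Of the epithelial markers, EPCAM was 3.89 CPM there, against 1.07 and 1.30 CPM, CDH1 2.22 CPM, against 0.671 and 0.185 CPM, and KRT19 1.11 CPM, against 0.94 and 0.555 CPM. KRT8 and KRT18 went the other way, with 14.5 CPM there, against 32.8 and 20.0 CPM, for KRT8 and 60.3 CPM, against 156 and 109 CPM, for KRT18. Replicate 2 was in run 1 and replicates 1 and 3 were in run 2, so library and run cannot be told apart within this line. Whether RNA from another line was present in replicate 2 was not tested. Without this library GRHL2 in Hs578T was -4.36 ± 0.28 on the log2 scale against the mean of the other lines (SE), in place of -3.42 ± 0.27, and ESRP1 -4.64 ± 0.23 in place of -3.63 ± 0.24. ZEB1 was 3.94 ± 0.09 in place of 3.68 ± 0.11, and SNAI2 4.93 ± 0.12 in place of 4.57 ± 0.15. ZEB2 was 3.22 in place of 3.15, TWIST1 4.06 in place of 3.78, and TWIST2 2.58 in place of 2.36. OVOL1 was -4.78 in place of -3.30, and OVOL2 -3.81 in place of -2.61. SNAI1 had 6 counts in replicate 2 and 0 in replicates 1 and 3, and was called lower only without replicate 2 (edgeR adjusted p = 0.00088). The other 9 calls of Hs578T kept their direction and their side of the threshold.

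Genes of the epithelial program were counted next. Their list and those below were chosen with earlier results of these data known, so the counts are a description. CDH1 and EPCAM of this list are also among the epithelial markers given above. Of 18 epithelial genes, all measured, between 13 and 18 were higher in each of the 9 upper lines (median log2 fold change 1.61 to 2.95), and between 12 and 18 were lower in each of the 6 lower lines (median -4.80 to -2.42). The share of all genes called higher was 13.3% to 17.5% in the upper lines and the share called lower 11% to 20.8% in the lower lines. Over all genes the medians of the same comparisons lay between -0.12 and 0.07. For 12 of the 18 genes every lower line was below every upper line, as for 0.908% of all genes tested. CDH1, the E-cadherin gene, was 24.1 CPM (MDA-MB-453) to 685 CPM (HCC70) in the upper lines and at most 1.53 CPM (MDA-MB-157) in the lower ones. CRB3, a polarity gene, was 10.1 to 27.8 CPM in the upper lines and at most 0.434 CPM in the lower ones, and EPCAM 153 to 857 CPM and at most 18.4 CPM. CLDN4, a tight junction claudin, was the only one of the 18 called higher in any lower line. In MDA-MB-231 its level was 75.8 ± 9.06 CPM (SD, n = 3), within the range of the upper lines, while ZEB1 was 126 CPM. This CLDN4 level was 2.04 ± 0.14 log2 units above the mean log2 level of the other lines (SE, edgeR adjusted p = 2e-17).

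Of 12 mesenchymal genes, all measured, 12 were higher in MDA-MB-157 (median 3.02), 11 in Hs578T (4.86), 10 in BT-549 (2.97), 8 in MDA-MB-436 (1.22) and 7 in MDA-MB-231 (1.94), but only 4 in HCC1395 with 6 lower (median -1.0). The share of all genes called higher was 19.6% in MDA-MB-157, 19.8% in Hs578T, 12.4% in BT-549, 15.7% in MDA-MB-436, 15% in MDA-MB-231 and 14% in HCC1395, where 20.8% were lower. MDA-MB-157 and Hs578T, which lead this count, are also the lines in which all 4 fibroblast markers were called higher, and the part of those markers was not tested. HCC38, an upper line, had 7 higher and none lower (1.09), where 13.3% of all genes were higher. VIM, the vimentin filament gene, was 1591 to 3606 CPM in the 6 lower lines and above every upper line, and among the upper lines it was 1317 CPM in HCC1143, 497 CPM in HCC38 and 2.42 CPM in HCC1937. CDH2 was 387 CPM in Hs578T and 152 CPM in BT-549, but 4.94 CPM in MDA-MB-231. FN1, the fibronectin gene, was 3149 CPM in Hs578T and 1888 CPM in MDA-MB-157, and CALD1, an actin-binding protein gene, was highest in HCC1187 at 1727 CPM. Only VIM and FBN1 of the 12 had every lower line above every upper line, as for 0.457% of all genes tested. FBN1 is named here as 1 of 5 genes most like ZEB1.

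Of 5 relatives of the 10 genes, 3 were measured and 2 shared the division, as did 0.908% of all genes tested. GRHL1 was 15.7 to 160 CPM in the upper lines and 3.85 to 14.1 CPM in the lower ones, and ESRP2 6.99 to 87.9 CPM and 0.21 to 4.87 CPM, both without overlap. GRHL3 overlapped between the sides (0.872 to 10.0 CPM and 0.17 to 0.972 CPM), and SNAI3 and OVOL3 did not pass the filter. Of 10 partners, which are corepressors, E proteins that pair with TWIST, and splicing factors, 14 of 150 comparisons were higher and 15 lower, and none divided the lines. Over all genes and lines 15.6% were higher and 14.4% lower, so the partners were called no more often than genes at large. CTBP1, a corepressor of ZEB1, ranged from 43.5 to 154 CPM, and RBFOX2, a splicing factor with the opposite effect to ESRP1, from 3.82 to 16.5 CPM. QKI, another such factor, was highest in BT-549 (326 CPM) and lowest in MDA-MB-453 (17.5 CPM), and TCF4, an E protein, was highest in HCC1395 (66.3 CPM). Of 7 other switch factors, each compared in 15 lines, none divided the lines either, with 33 comparisons higher and 32 lower, where the share over all genes was the same 15.6% and 14.4%. PRRX1 was 154 CPM in Hs578T and 89.5 CPM in MDA-MB-436 but 2.92 CPM in MDA-MB-231, HMGA2 was 675 CPM in HCC1395, FOXQ1 was 91.5 CPM in HCC1806, and FOXC2 did not exceed 4.55 CPM (Hs578T).

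**Figure D4:**
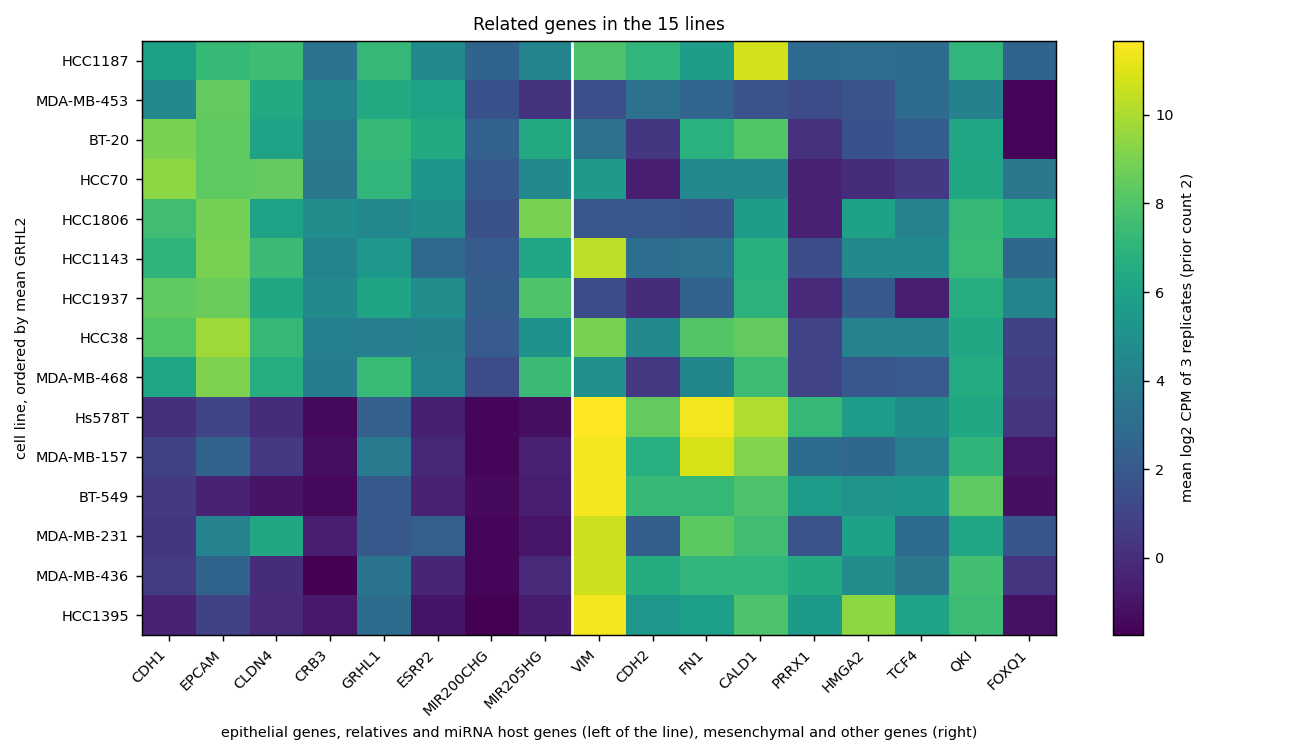
Rows are the 15 lines ordered by mean GRHL2, columns are 17 related genes, and colour is the mean log2 CPM of 3 replicates. CDH1, EPCAM, CRB3, GRHL1, ESRP2, MIR200CHG and MIR205HG are lower in each of the 6 bottom rows than in any other row, VIM is higher in each of them, and CLDN4 overlaps through MDA-MB-231.

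The genes whose line means ran most like those of ZEB1 over the 15 lines, by Spearman rho among 15114 protein-coding genes, were ZNF385D (0.96), FBN1, AFF3 and MPP4 (0.93 each) and PID1 (0.90). ZNF385D ranged from 1.20 CPM (HCC70) to 31.9 CPM (BT-549), and FBN1, the fibrillin gene, from 2.08 CPM (HCC1806) to 623 CPM (Hs578T). Those most like GRHL2 were GATA3 (0.93), RAB19 (0.93), TMCC1 and ZNF613 (0.91 each) and TRADD (0.90). GATA3, a luminal transcription factor, ranged from 0.262 CPM (HCC1395) to 130 CPM (MDA-MB-453). They are given as likeness only, since the 15 lines fall into 2 sets and a rank correlation over them reflects this.

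The 10 genes were last compared by growth medium, over the summed libraries of 5 L-15 and 8 RPMI lines, with BT-20 and Hs578T left out as single lines of their media. By edgeR 0 of the 10 were called and 0 had an unadjusted p under 0.05, and DESeq2 called 0. Of all 20505 genes tested, 0% were called. ZEB1 was 1.36 to 131 CPM (median 61.1) in L-15 lines and 1.24 to 181 CPM (median 4.48) in RPMI lines, a log2 difference of 0.35 ± 1.24 (SE, edgeR adjusted p = 0.935). GRHL2 was 0.870 to 247 CPM (median 2.07) in L-15 lines and 0.424 to 291 CPM (median 189) in RPMI lines (-1.19 ± 1.39, edgeR adjusted p = 0.769). The lowest adjusted p was that of ZEB2, higher by 1.68 ± 0.95 in L-15 lines (edgeR adjusted p = 0.524). The standard errors over the 10 genes were 0.77 to 1.39 log2 units, so these comparisons leave wide intervals.

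**Figure D5:**
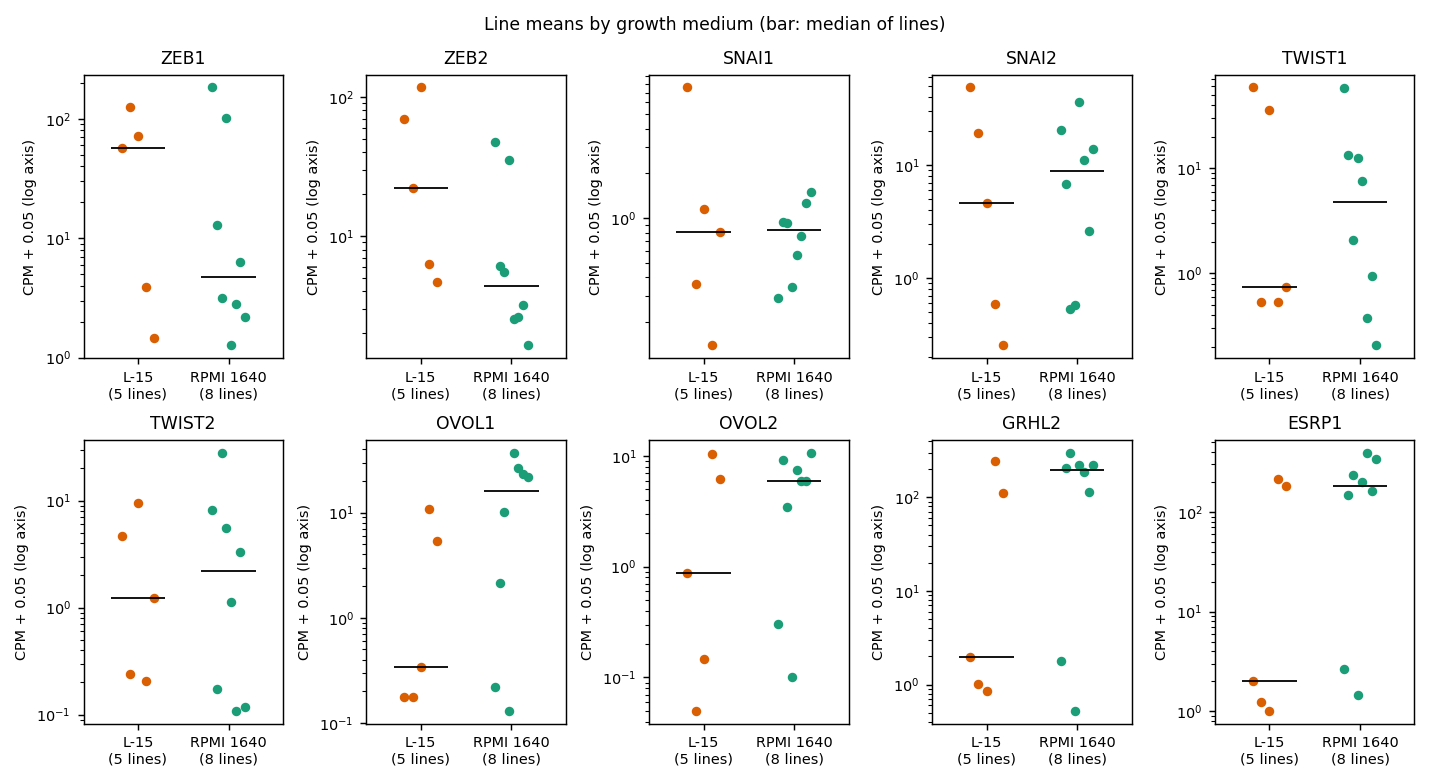
Each panel plots 1 gene as line means (CPM + 0.05, log y axis), with 5 L-15 lines left and 8 RPMI lines right, and a bar at the median of each. In every panel the ranges of the 2 media overlap.

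No gene of the 10 had a slope on MYC that passed over the 15 lines (edgeR, summed libraries), where 0.158% of 26615 genes did, and DESeq2 gave none. The smallest unadjusted p was that of SNAI1, the only one of the 10 under 0.05, with a slope of -1.11 ± 0.45 log2 units per log2 unit of MYC (SE, edgeR adjusted p = 0.69). ZEB1 had a slope of 1.02 ± 0.69 (edgeR adjusted p = 0.936) and GRHL2 one of -0.55 ± 0.88 (edgeR adjusted p = 0.998).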

How the data were processed

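Raw counts per gene were deposited by the authors for 45 libraries of 15 lines. Per the labels' protocols, total RNA (RNeasy) was depleted of ribosomal RNA (Ribo-Zero Gold) and made into ScriptSeq v2 libraries. Per the submitters' processing notes, bcl2fastq 2.20.0.422, FastQC, MultiQC, Trimmomatic, STAR and featureCounts were used with GRCh38.p12. Not given in the sources used here: other versions, annotation release, strandedness and multi-mapped reads. Symbols and positions came from GENCODE 29 (58320 IDs matched), sequences from RefSeq. Counts were fitted in edgeR 4.0.16 (R 4.3.3, TMM, filterByExpr with minima of 10 counts and 15 in total, quasi-likelihood F test, Benjamini-Hochberg threshold 0.05), leaving 20587 genes. Standard errors are the log2 fold change over the square root of F, and log2 CPM used a prior count of 2. The mean of the other lines was that of their fitted log2 levels. A line with 0 counts of a gene was left out of the mean of the other lines, which touched 1727 genes tested. Medium and MYC used counts summed per line. DESeq2 1.42.0, other scaling, no filter, each replicate left out, runs as a block and comparisons within a set of runs were alternatives. The 10 genes were always named, with fixed genes of each list and the 5 most like ZEB1 and GRHL2. The genes and lists were chosen with earlier results of these data known. The labels place replicates 1, 2 and 3 of 11 lines in runs 3, 4 and 5. In HCC1143 and Hs578T replicate 2 was in run 1 and replicates 1 and 3 in run 2. In HCC38 and MDA-MB-231 replicate 2 was in run 2 and replicates 1 and 3 in run 1. Over 11 lines, deviations of same-run libraries had a median correlation of 0.058 (165 pairs), against -0.030 for other pairs (330 pairs). The fits were tested on simulated data.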

Additional observations from a re-analysis of the deposited data

How the results depend on the processing

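All 10 genes differed among the lines under each of 8 alternatives, and 0 of the 10 were called for medium or MYC under any. Calls over pairs of lines ranged from 714 to 815, against 780. Repressor calls ranged from 33 to 35 higher and 33 to 36 lower, and guardian calls from 33 to 35 higher and 23 to 24 lower. With run as a replicate block, 10 genes differed among lines and 792 of 1050 comparisons of the genes over pairs of lines passed. In that fit 35 repressor calls were higher and 34 lower, and 34 guardian calls were higher and 24 lower. The block ended none of the 126 calls of a line against the other lines. Of these, 117 passed under all 9 alternatives run, 9 were lost at least once and 0 reversed. SNAI1 in BT-549 was lost with DESeq2 size factors (adjusted p = 0.0522), with no filter (0.0542) and without replicates 2 (0.104) or 3 (0.176). SNAI1 in HCC70 had a log2 fold change of 0.99 with DESeq2 size factors and was lost without replicates 2 (adjusted p = 0.208) or 3 (0.127). ZEB2 in HCC1187 was -0.92 without replicate 1 and -0.94 within its set of runs. OVOL1 in MDA-MB-468 was 0.68 without replicate 2, TWIST2 in HCC38 0.78 without replicate 3, and OVOL2 in MDA-MB-157 -1.19 without replicate 3 (adjusted p = 0.0539). Without replicate 2 HCC1395 and MDA-MB-157 had 0 counts of OVOL1 and left the mean of the other lines. HCC1937 did so for TWIST2 without replicate 3. Within their own runs ZEB1 in BT-20 was -0.91, ZEB2 in MDA-MB-231 0.95 and SNAI2 in MDA-MB-231 0.62, against 1.83 over all lines. The cause was not tested. DESeq2 scaling shifted Hs578T by 0.14 and HCC70 by -0.10 log2 units. Depth limits SNAI1 and the lower values of OVOL1, OVOL2 and TWIST2, which rest on few counts.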
